A study of Mus musculus with 74 samples.

Results

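Immediate early genes are switched on within minutes of a stimulus, without new protein synthesis, and 10 of them were followed here across all tables of a study of the transcriptional repressor BCL6 in mouse quadriceps. The genes were Fos, Fosb, Fosl2, Jun, Junb, Maff, Egr1, Egr3, Ier2 and Zfp36, and all 10 were found by exact symbol among 24940 genes. The FOS and JUN proteins pair to form the AP-1 transcription factor, EGR1 and EGR3 are zinc finger factors, MAFF is a small MAF protein that lacks a transactivation domain, and IER2 is a nuclear protein. ZFP36 (tristetraprolin) is no transcription factor: it binds AU-rich elements in messenger RNAs and speeds their decay. In skeletal muscle these genes are known to respond to contraction, stretch, injury and handling, and they are also induced in the vascular and immune cells of the tissue.

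The study used C57BL/6 mice. Poly(A) RNA came from 5 knockouts (AEC-Esr Cre-positive, Bcl6 fl/fl, tamoxifen), 4 Cre-negative Bcl6 fl/fl mice given tamoxifen and 4 Cre-positive Bcl6 fl/fl mice given oil, so both control groups carry the floxed allele. In RiboTag mice an HA tag on a ribosomal protein lets ribosomes be captured, here with anti-HA beads after RNase digestion. Ribosome footprints and poly(A) mRNA were sequenced in 4 RiboTag knockouts (AEC-Esr Cre-positive, Bcl6 fl/fl, tamoxifen) and 4 RiboTag controls that also had Cre and tamoxifen but for which no floxed Bcl6 allele is labelled. The labels do not say which promoter drives the Cre, and they list the anti-HA antibody for the RiboTag mRNA too, so the source of that RNA (total tissue or captured ribosomes) is not known. Nascent RNA was sequenced in 5 wild-type libraries given FX1, a small-molecule inhibitor of BCL6, and 5 given DMSO; dose and time are not in the labels. The histone mark H3K27ac, which sits on promoters and enhancers in use, was profiled in 3 tamoxifen-treated knockouts and 3 tamoxifen-treated Cre-negative Bcl6 fl/fl mice in each of 3 series (acute, chronic, and windows on BCL6 peaks), and BCL6 binding in 1 wild-type library. Ages were not used here, and p-values measure the spread between the sequenced libraries.

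Totals in megatags ran from 6.70 to 7.62 in the poly(A) libraries, from 12.4 to 28.2 in the RiboTag libraries, from 13.95 to 32.7 in the nascent libraries and from 7.79 to 23.02 in the H3K27ac libraries. Counts in genes were 3248807 to 4370468 per footprint library and 6499561 to 13045854 per RiboTag mRNA library. As a check of the labels, Bcl6 itself was lower in the knockouts in poly(A) RNA (log2 -0.24 ± 0.057 SE against Cre-negative muscle, limma adjusted p = 0.0132) and in footprints (log2 -1.12 ± 0.195, edgeR adjusted p = 0.00201). The footprint fall is a weak check, as 42 of 58 tested markers of other cells and 15.7% of all tested genes were also called lower there. In RiboTag mRNA, Bcl6 averaged 229 CPM in the knockouts and 209 CPM in the controls (log2 0.14 ± 0.26, edgeR adjusted p = 0.84), so this table does not show the deletion; its counts cover the whole gene. Markers of muscle fibres were abundant, with 19380 to 30180 summed CPM over 12 genes in RiboTag mRNA.

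Of the promoters of genes called in RiboTag mRNA or in nascent RNA, 4 are shown: that of Fos, the member with the largest RiboTag difference, and those of Fosb, Fosl2 and Zfp36, which hold an EGR factor site; Junb and Maff were also called and are not printed. RefSeq promoter sequence (GRCm38.p6, the mm10 build) was at hand for 7 of the 10 genes: Fos, Fosb, Fosl2, Jun, Junb, Maff and Zfp36. Each line gives the 250 bases before the start, 5′ to 3′ on the gene's strand, and capitals mark the motifs found by letter match on both strands, overlaps allowed.
Fos, chr12:85473640-85473889, plus strand: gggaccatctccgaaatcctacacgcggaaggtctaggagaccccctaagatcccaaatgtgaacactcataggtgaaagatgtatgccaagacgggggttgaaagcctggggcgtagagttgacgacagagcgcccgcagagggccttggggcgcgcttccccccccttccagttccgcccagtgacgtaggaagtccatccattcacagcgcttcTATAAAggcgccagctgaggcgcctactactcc
Fosb, chr7:19310046-19310295, minus strand: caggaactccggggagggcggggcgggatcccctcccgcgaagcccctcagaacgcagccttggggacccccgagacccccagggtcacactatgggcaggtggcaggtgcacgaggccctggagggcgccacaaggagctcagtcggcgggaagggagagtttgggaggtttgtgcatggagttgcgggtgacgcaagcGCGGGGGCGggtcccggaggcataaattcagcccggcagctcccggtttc
Fosl2, chr5:32136222-32136471, plus strand: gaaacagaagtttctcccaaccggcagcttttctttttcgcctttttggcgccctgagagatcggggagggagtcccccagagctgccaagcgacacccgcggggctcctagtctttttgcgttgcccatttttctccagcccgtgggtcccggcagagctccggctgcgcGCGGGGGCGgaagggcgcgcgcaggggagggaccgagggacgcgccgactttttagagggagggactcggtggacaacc
Zfp36, chr7:28379229-28379478, minus strand: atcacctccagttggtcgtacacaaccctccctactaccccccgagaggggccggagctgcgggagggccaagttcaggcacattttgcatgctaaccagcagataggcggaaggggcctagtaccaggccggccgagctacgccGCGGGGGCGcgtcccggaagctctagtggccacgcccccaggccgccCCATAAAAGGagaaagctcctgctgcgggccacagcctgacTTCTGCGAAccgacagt
The zinc finger site of EGR factors, searched as GCGNGGGCG, was present in the promoters of Fosl2, Fosb and Zfp36 and at the second of 3 Maff starts, that is in 4 of 7 genes, against 4.70% of 32851 promoters of the same length. The units differ: Maff had 3 windows in which to match, whereas the background counts each promoter by itself. Zfp36 also held a CArG box, the site of serum response factor, 58 to 49 bases before its start (1.47% of all promoters), and the core of BCL6 and STAT sites, searched as TTCNNNGAA, 17 to 9 bases before it (7.02% of all promoters). The capitals in Fos are a TATA box (TATAAA, 12.4% of all promoters). The second Maff start held a cAMP response element, TGACGTCA (1.55% of all promoters). The AP-1 site TGANTCA, present in 6.75% of all promoters, was in none of the 7 genes within these 250 bases. These are letter matches in a short window and say nothing of binding.

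In RiboTag mRNA the knockouts had more Fos, Fosb, Egr3 and Ier2 mRNA than the controls, by 1.78 to 5.48 times, and no member was called lower. Calls rest on edgeR's quasi-likelihood test with Benjamini-Hochberg adjustment over all tested genes, at an adjusted p below 0.05. These 4 of 10 members compare with 1.95% of all 14476 tested genes called higher, 2.25% called lower and 4.21% called in either direction. The members and lists were chosen with earlier results of these data known. Here and below, such shares and medians are therefore a description and no test of the gene class. The median log2 difference of the 10 members was 0.81, beside 0.012 for all tested genes. The members' summed level ran from 525 to 725 CPM in the 4 knockouts and from 361 to 403 CPM in the 4 controls.

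Fos, which encodes an AP-1 subunit, had the lowest p of the members. It had 117, 50.0, 59.7 and 98.1 CPM in the knockouts, against 16.3, 16.8, 16.5 and 8.69 CPM in the controls. All 4 knockouts lay above all 4 controls, and the lowest knockout was still well above the highest control. The mean was 81.2 ± 31.6 CPM in the knockouts and 14.6 ± 3.94 CPM in the controls (SD, n = 4 each), a 5.48-fold difference (log2 2.45 ± 0.27 SE, edgeR adjusted p = 0.000398).

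Fosb, a FOS relative known for its stable ΔFOSB splice form, had 14.0, 6.52, 10.4 and 8.63 CPM in the knockouts, against 2.50, 1.01, 2.81 and 3.84 CPM in the controls. The groups did not overlap, and the fold was 3.98 (log2 1.99 ± 0.35, edgeR adjusted p = 0.00699). Egr3, a factor needed for muscle spindles, had 16.2, 5.09, 7.13 and 9.07 CPM in the knockouts, against 3.34, 1.93, 1.46 and 1.17 CPM in the controls. Again every knockout lay above every control (4.60-fold, log2 2.20 ± 0.40, edgeR adjusted p = 0.00837). Counts behind it were low, 50 to 165 in the knockouts and 7 to 36 in the controls. Ier2 had 29.8, 19.4, 35.9 and 20.8 CPM in the knockouts, against 15.5, 13.1, 16.9 and 13.9 CPM in the controls, without overlap (1.78-fold, log2 0.83 ± 0.20, edgeR adjusted p = 0.0354). Ier2 was the least firm of the 4: its adjusted p was 0.0522 to 0.111 in 6 of the 8 fits that left out 1 animal.

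The JUN genes encode the partners of FOS. Jun was the most abundant member and had 227, 205, 203 and 205 CPM in the knockouts, against 173, 187, 172 and 170 CPM in the controls. Its groups did not overlap, yet the difference was small (log2 0.26 ± 0.073) and missed the threshold (edgeR adjusted p = 0.0765). Junb had 66.8, 28.8, 36.0 and 32.8 CPM in the knockouts, against 19.8, 28.1, 24.4 and 23.1 CPM in the controls, again without overlap and without passing (log2 0.79 ± 0.23, edgeR adjusted p = 0.091). With DESeq2 both passed, at adjusted p values of 0.0276 for Jun and 0.0216 for Junb, and Junb passed in edgeR without the second knockout (log2 0.91, adjusted p = 0.0475). Junb did not pass without any other single animal (edgeR adjusted p = 0.116 to 0.195), and its difference fell to log2 0.44 without the first knockout. Jun passed in none of the fits that left out 1 animal (edgeR adjusted p = 0.103 to 0.264). In all, 6 members, Jun, Junb and the 4 called, had every knockout above every control, as did 5.61% of all tested genes.

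Egr1 varied most between animals of a group. It had 100, 23.8, 118 and 42.9 CPM in the knockouts, against 51.9, 13.5, 16.8 and 12.7 CPM in the controls. The 1 control at 51.9 CPM lay above 2 of the knockouts, and the difference did not pass (log2 1.56 ± 0.53, edgeR adjusted p = 0.143). It passed without that control (log2 2.30, adjusted p = 0.0168) or without the knockout at 23.8 CPM (log2 1.84, adjusted p = 0.0499). These are the highest control and the lowest knockout. Without any other single animal Egr1 did not pass (log2 1.19 to 1.72, edgeR adjusted p = 0.166 to 0.304). Fosl2, the FOS relative FRA2, averaged 70.5 ± 19.7 CPM in the knockouts and 48.9 ± 8.87 CPM in the controls (edgeR adjusted p = 0.183). Zfp36 averaged 78.9 ± 8.03 CPM in the knockouts and 59.6 ± 23.6 CPM in the controls (edgeR adjusted p = 0.395). Maff was the member on the other side of zero, with 9.72 ± 2.98 CPM in the knockouts and 12.0 ± 4.85 CPM in the controls (SD, n = 4 each for the 3 genes; edgeR adjusted p = 0.708). The groups overlapped in all of these.

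Among 27 tested genes of a second list of immediate early genes, 4 were called higher and 0 lower in the knockouts (median log2 0.31; edgeR). They included Cyr61, a secreted matricellular protein (140 CPM in knockouts and 66.8 CPM in controls, log2 1.06 ± 0.14, adjusted p = 0.00144), Myc (log2 0.95 ± 0.19, adjusted p = 0.0138) and Dusp1, a phosphatase that turns MAP kinases off (log2 0.45 ± 0.090, adjusted p = 0.0157). Of 21 kinases and factors upstream of these genes, 1 was called higher and 4 lower (median log2 -0.19), among them the p38 kinase Mapk14 (log2 -0.37 ± 0.075, adjusted p = 0.0163) and its activator Map2k6 (log2 -0.62 ± 0.085, adjusted p = 0.00147). None of 11 heat shock genes was called in edgeR (1 at an unadjusted p below 0.05), and none of 11 other AP-1 and MAF family genes was called (4 at an unadjusted p below 0.05).

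Beside these results, markers of other cells were measured; fewer cells of a type and less RNA per cell cannot be told apart in such tissue libraries. Of 10 endothelial, 10 myeloid and 10 fibroblast markers, none was called in RiboTag mRNA (0 at an unadjusted p below 0.05 in edgeR). The summed level of 8 neutrophil markers was 120 and 312 CPM in the third and the fourth knockout, against 2.04 and 7.97 CPM in the other knockouts and 1.93 to 6.60 CPM in the controls. Without those 2 knockouts Fos stayed called (log2 2.48, adjusted p = 0.0103), Egr3 (log2 2.37, adjusted p = 0.0667), Fosb (log2 2.02, adjusted p = 0.0846) and Ier2 (log2 0.71, adjusted p = 0.163) no longer passed in this smaller edgeR fit, with estimates close to those of the full fit.

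**Figure D1:**
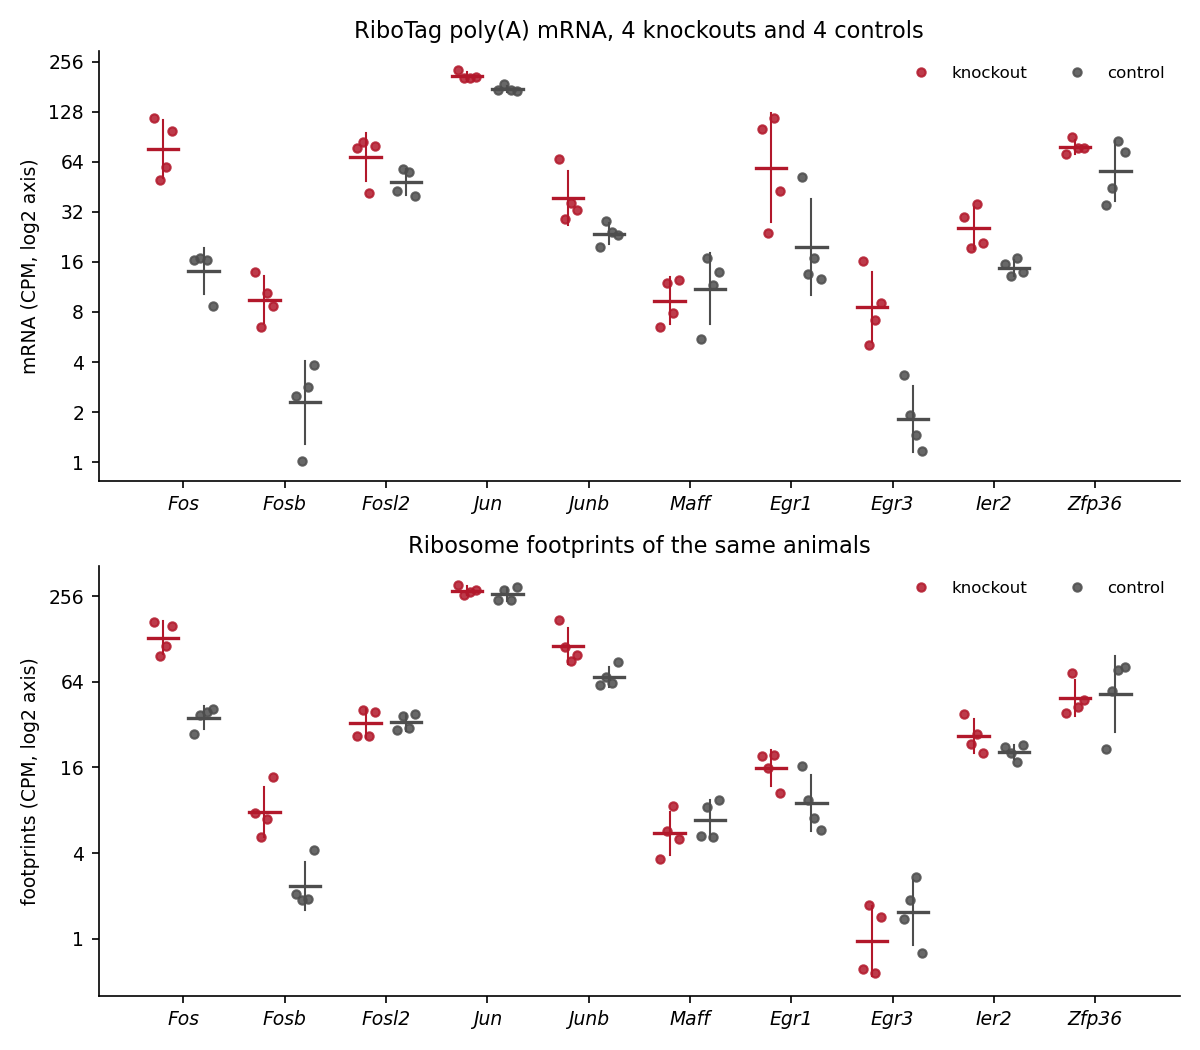
Levels of the 10 genes in RiboTag poly(A) mRNA (top) and ribosome footprints (bottom), in CPM on a log2 axis, with knockouts left of controls. Points are animals (4 per group), horizontal bars the mean of log2 CPM and vertical bars 1 SD of log2 CPM; Fos and Fosb stand apart without overlap in both panels, whereas Egr3 does so in mRNA only.

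In ribosome footprints the knockouts had more reads on Fos, Fosb and Junb, that is on 3 of 9 tested members, against 10.9% of all 12979 tested genes called higher, 15.7% called lower and 26.6% called in either direction. The same 3 members had every knockout above every control, as did 14.1% of all tested genes. No member was called lower, and the median log2 difference of the 9 was 0.35, beside 0.0040 for all tested genes. Egr3 held too few footprints to be tested.

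Fos footprints were 169, 96.8, 113 and 158 CPM in the knockouts, against 27.3, 37.2, 39.1 and 41.0 CPM in the controls. The groups were far apart (3.65-fold, log2 1.87 ± 0.18 SE, edgeR adjusted p = 5.22e-05). Fosb had 7.63, 5.17, 6.90 and 13.6 CPM in the knockouts, against 2.05, 1.89, 1.91 and 4.2 CPM in the controls, without overlap (log2 1.71 ± 0.38, edgeR adjusted p = 0.00604), from 18 to 57 counts in knockouts and 7 to 16 in controls. Junb had 174, 112, 89.9 and 98.4 CPM in the knockouts, against 60.8, 69.5, 62.6 and 87.5 CPM in the controls. Its groups just failed to touch (log2 0.73 ± 0.18, edgeR adjusted p = 0.0118).

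Ier2 averaged 27.2 ± 7.89 CPM in the knockouts and 20.7 ± 2.38 CPM in the controls, and Egr1 16.3 ± 4.2 CPM in the knockouts and 9.68 ± 4.73 CPM in the controls (edgeR adjusted p = 0.209 and 0.13). The edgeR adjusted p of Egr1 reached 0.0158 without the first control, its highest, and was 0.0645 to 0.287 without any other single animal. Jun, with 280 ± 19.3 CPM in the knockouts and 265 ± 28.3 CPM in the controls, had an estimated log2 difference of 0.053 ± 0.088 (edgeR adjusted p = 0.686). Fosl2, Zfp36 and Maff had log2 differences of -0.033, -0.23 and -0.33 with overlapping groups (SD, n = 4 each). In the second list, 3 of 24 tested immediate early genes were called higher, among them Myc (log2 0.77 ± 0.15, edgeR adjusted p = 0.00325), and 2 lower, among them Ctgf (log2 -0.91 ± 0.22, adjusted p = 0.0103).

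Endothelial, myeloid and fibroblast markers were lower in the footprints of the knockouts and were not called in the mRNA. All 10 endothelial, 9 of 10 myeloid and all 10 fibroblast markers were called lower in the knockouts (edgeR; median log2 -1.53, -1.18 and -0.99). The summed endothelial level was 195 to 509 CPM in the knockouts and 569 to 966 CPM in the controls, and the myeloid level 306 to 703 CPM in the knockouts and 849 to 1171 CPM in the controls. Their part in the footprint results was not tested. In the mRNA libraries of the same animals, 0 of these 30 markers were called. Over all 58 tested markers of other cells, 42 were called lower and 2 higher in footprints. The 2 were S100a9 of neutrophils (log2 3.65 ± 0.985, edgeR adjusted p = 0.0159) and Myod1 of satellite cells (log2 0.56 ± 0.116, edgeR adjusted p = 0.00445). In mRNA, 1 of 62 was called higher, Cdh15 of satellite cells (log2 0.388 ± 0.09, edgeR adjusted p = 0.0313), and 0 lower. Without the 2 knockouts high in neutrophil markers, the differences were log2 1.86 for Fos (edgeR adjusted p = 0.00041), 1.01 for Junb (0.0102) and 1.33 for Fosb (0.0829).

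Translation efficiency was taken as the footprint change over the mRNA change, tested in edgeR as a genotype by library-type interaction over the 16 RiboTag libraries. The mRNA and footprint libraries of the same animal were treated as independent in this fit, and a fit with the animal as a block was an alternative. Egr3 alone among the members was called, lower, against 6.98% of all 14935 tested genes called lower, 2.93% called higher and 9.91% called in either direction. Its footprint over mRNA ratio was 0.038, 0.34, 0.081 and 0.16 in the knockouts, against 0.41, 0.98, 1.88 and 0.67 in the controls, without overlap (log2 -2.79 ± 0.71, edgeR adjusted p = 0.0209). These ratios rest on 2 to 6 footprint counts per knockout and 3 to 10 per control, too few for Egr3 to be tested in the footprint libraries alone. It entered the joint fit through its mRNA counts, the call rests mainly on the mRNA difference given above, and it is no separate evidence on translation; the adjusted p was 0.0567 to 0.092 in 5 of the 8 fits that left out 1 animal. The authors' deposited table gave Egr3 a log2 difference of -3.04 (adjusted p = 0.00657).

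For the other members the efficiency difference was not called, and the median over all 10 was -0.48, beside 0.054 for all tested genes. Fos had ratios of 1.72 ± 0.24 in the knockouts and 2.74 ± 1.35 in the controls (edgeR log2 -0.54 ± 0.36, adjusted p = 0.332), and the control at 4.72, above the 3.79 of Junb in that animal, was also the one with the lowest Fos mRNA, 8.69 CPM. Jun ratios were 1.27 to 1.38 in the knockouts and 1.39 to 1.73 in the controls, all lower in the knockouts by a narrow margin (edgeR log2 -0.16 ± 0.12, adjusted p = 0.402). Junb had the highest mean ratios of the 10 in both groups, averaging 3.0 ± 0.62 in the knockouts and 2.98 ± 0.60 in the controls (SD, n = 4 each). Fosl2 differed between methods: the authors' deposited table gave a log2 difference of -1.77 (adjusted p = 0.00208), whereas the edgeR interaction gave -0.52 ± 0.28 (adjusted p = 0.243). In the same test 10 of 10 endothelial and 7 of 10 fibroblast markers were called lower.

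In poly(A) RNA of the other cohort, the knockouts were set against 2 kinds of control. Against Cre-negative muscle, Fos and Fosl2 were lower in the knockouts and no member was higher, that is 2 of 10 called lower against 8.44% of all 14840 tested genes (5.55% called higher and 14% in either direction). Values are the authors' log2 expression. Fos read 7.71, 7.42, 7.42, 7.62 and 7.64 in the knockouts, against 7.88, 8.11, 7.83 and 7.87 in the Cre-negative mice. Every knockout lay below every Cre-negative mouse (log2 -0.36 ± 0.067 SE, limma adjusted p = 0.00239). Fosl2 read 8.61, 8.58, 8.49, 8.55 and 8.63 in the knockouts, against 8.79, 8.62, 8.73 and 8.80 in the Cre-negative mice. The groups overlapped by 1 animal each (log2 -0.16 ± 0.039, limma adjusted p = 0.0144), and with no filter on low genes the adjusted p was 0.0906. The authors' deposited table gave larger log2 differences, of -0.62 for Fos (adjusted p = 1.26e-05) and -0.27 for Fosl2 (adjusted p = 0.00714). Maff was 5.79 ± 0.030 in the knockouts and 5.89 ± 0.072 in the Cre-negative mice (SD, n = 5 and 4; log2 -0.093, limma adjusted p = 0.0616). The other 7 members differed by log2 -0.045 to 0.046. In the wider list of immediate early genes, 1 of 27 tested was called higher and 4 lower (limma). Dusp1 was among the lower ones (log2 -0.28 ± 0.038, limma adjusted p = 0.000215), whereas it was higher in RiboTag mRNA. Beside these differences, 1 muscle fibre marker of 12 was called higher and 3 lower, and of 64 tested markers of other cells 1 was called higher and 4 lower, among them 2 of 10 fibroblast and 1 of 10 endothelial markers (limma). Their part in the Fos and Fosl2 differences was not tested.

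Against Cre-positive mice given oil, none of the 10 members was called in limma, with 1 of them, Ier2, at an unadjusted p below 0.05, whereas 21.9% of 14869 tested genes were called. Fos read 7.54, 7.20, 7.20, 7.43 and 7.46 in the knockouts, against 7.40, 7.29, 7.51 and 7.51 in the oil mice, which overlapped (log2 -0.059 ± 0.070, limma adjusted p = 0.604). The 5 knockouts are the same animals in both comparisons, transformed separately in each table, so the tables are not independent. Ier2 was 6.93 ± 0.038 in the knockouts and 6.87 ± 0.031 in the oil mice (log2 0.067 ± 0.028, limma adjusted p = 0.11). In the wider list, 3 of 27 tested genes were called higher and 3 lower against oil mice, beside 9.3% and 12.6% of all tested genes (limma). Myc was higher in the knockouts than in Cre-negative mice (log2 0.44 ± 0.039, limma adjusted p = 7.79e-06) and than in oil mice (log2 0.52 ± 0.049, limma adjusted p = 7.59e-06). Arc was lower in both (log2 -0.13 and -0.42). Of the markers in this comparison, 4 of 12 for muscle fibres were called higher and 3 lower, and of 63 tested for other cells 13 were called higher and 8 lower; their part was not tested. RiboTag and poly(A) tables come from different mice, controls and units, and the difference between their Fos changes was not tested.

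**Figure D2:**
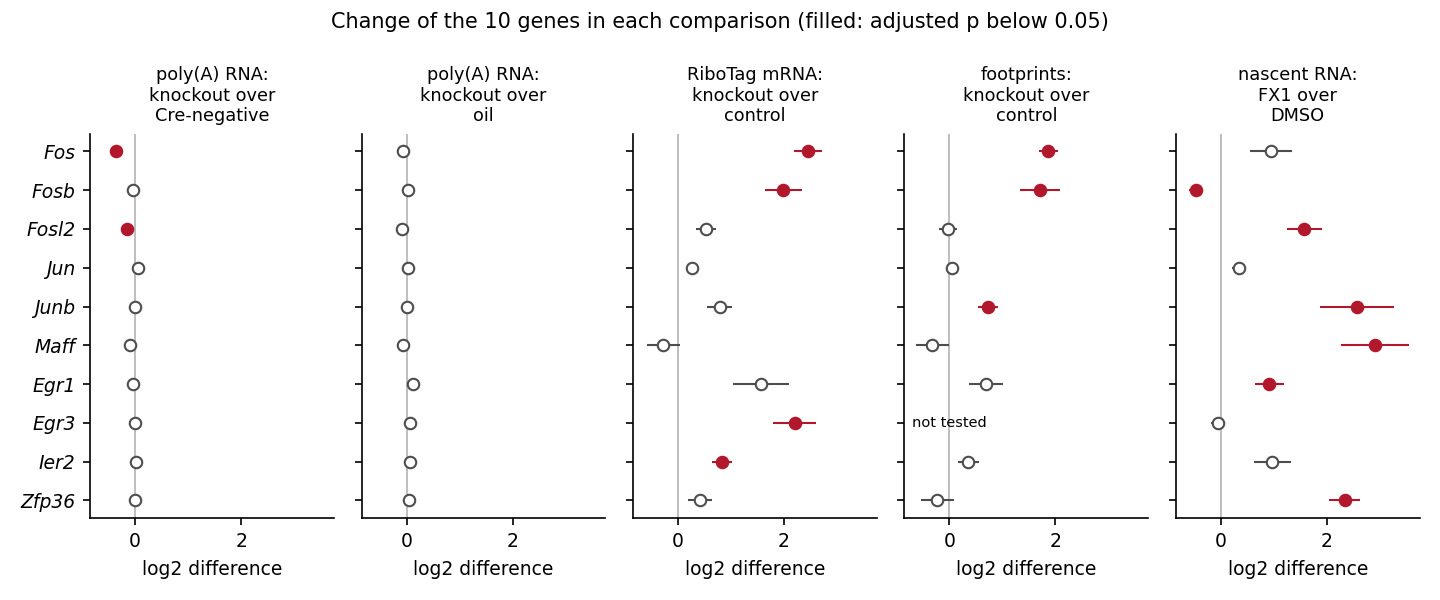
Log2 difference of each gene (rows) in 5 comparisons (panels), with bars of 1 SE and filled points where the adjusted p was below 0.05. Fos lies at 2.45 in RiboTag mRNA and 1.87 in footprints but at -0.36 in poly(A) RNA against Cre-negative mice, and the largest nascent RNA difference is that of Maff, at 2.91. RiboTag values are log2 fold changes of counts, whereas poly(A) and nascent values are differences of the authors' log2 values. The latter can be smaller than the authors' deposited fold changes (nascent Fosb: -0.48 and -1.38), so sizes are not comparable between these panels.

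After FX1, nascent RNA of Maff, Junb, Zfp36, Fosl2 and Egr1 was higher and that of Fosb lower than after DMSO. Thus 5 of 10 members were called higher, against 9.04% of all 17541 tested genes and 1 lower, against 8.82% called lower and 17.9% called in either direction. As the members were chosen with earlier results of these data known, these shares are a description only. The median log2 difference was 0.96 over the members and -0.014 over all tested genes. Values are the authors' log2 values of tags over whole genes.

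Maff had the largest difference. It read 11.30, 10.99, 7.62, 7.97 and 8.87 with FX1, against 6.12, 6.70, 6.34, 6.53 and 6.52 with DMSO. The groups did not overlap, and FX1 libraries 1 and 2 stood far above the other FX1 libraries (log2 2.91 ± 0.64 SE, limma adjusted p = 0.0097). Junb showed the same split, with 11.23, 10.45, 7.08, 7.40 and 8.65 with FX1 against 6.38, 6.87, 6.43, 5.79 and 6.46 with DMSO (log2 2.58 ± 0.70, limma adjusted p = 0.0257). Zfp36 was more even, with 10.93, 11.27, 9.75, 9.90 and 9.96 with FX1 against 8.2, 8.06, 8.18, 7.39 and 8.27 with DMSO. It had the lowest p of the members (log2 2.34 ± 0.30, limma adjusted p = 0.000544). Fosl2 read 11.99, 11.32, 9.70, 10.44 and 10.70 with FX1, against 9.20, 9.43, 9.30, 9.05 and 9.30 with DMSO, without overlap (log2 1.58 ± 0.33, limma adjusted p = 0.008). These 4 of 10 members had all FX1 libraries above all DMSO libraries, as did 7.33% of all tested genes.

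Egr1 read 7.65, 7.31, 6.62, 7.71 and 8.22 with FX1, against 6.40, 7.16, 6.62, 6.05 and 6.72 with DMSO, and the groups overlapped (log2 0.91 ± 0.28, limma adjusted p = 0.0413). Fosb, at the low end of the scale, read 3.62, 3.35, 3.13, 3.55 and 3.27 with FX1, against 3.72, 4.13, 3.89, 3.61 and 3.97 with DMSO, overlapping narrowly (log2 -0.48 ± 0.13, limma adjusted p = 0.0259). The authors' deposited table gave Fosb a log2 difference of -1.38 (adjusted p = 0.0164). Calls of Egr1, Fosb and Junb were lost in several fits without 1 library: the adjusted p of Egr1 was then up to 0.0884 and that of Fosb up to 0.0647, and that of Junb was 0.0673 without FX1 library 2 and 0.0521, 0.054 and 0.0522 without DMSO library 1, 3 or 5. With no filter on low genes, Junb (adjusted p = 0.0717) and Egr1 (0.0925) did not pass. Fos averaged 7.81 ± 0.97 with FX1 and 6.86 ± 0.44 with DMSO (limma adjusted p = 0.128), and Ier2 6.32 ± 0.91 with FX1 and 5.34 ± 0.044 with DMSO (SD, n = 5 each; limma adjusted p = 0.0756). Without FX1 library 3 both passed, Fos at log2 1.21 (limma adjusted p = 0.0383) and Ier2 at log2 1.23 (limma adjusted p = 0.014). The authors' deposited table called both, with log2 differences of 1.42 (adjusted p = 0.0114) and 1.75 (adjusted p = 0.00121). Jun differed by log2 0.34 ± 0.14 (limma adjusted p = 0.106) and Egr3 by -0.064 ± 0.12 (limma adjusted p = 0.748).

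Averaged over the 10 members, FX1 libraries 1 to 5 lay 2.04, 1.89, 0.33, 0.73 and 1.03 above the DMSO mean on the log2 scale. Each FX1 library was therefore above it, and libraries 1 and 2 most. Without those 2, Zfp36 (log2 1.85), Maff (1.71), Junb (1.32) and Fosl2 (1.03) stayed called, with limma adjusted p values of 0.00118 to 0.0478, whereas Egr1 (log2 0.93, adjusted p = 0.142) and Fosb (log2 -0.55, adjusted p = 0.0558) did not, and the Fos difference came to 0.26. The differences of Maff, Junb, Fosl2, Fos, Ier2 and Jun were over 1.5 times larger with libraries 1 and 2 than without them. In FX1 libraries 3 to 5, Ier2 lay -0.048, 0.44 and 0.67 from the DMSO mean, against a full difference of log2 0.97. Jun lay 0.30, 0.13 and 0.16 above the DMSO mean in these libraries, against a full difference of log2 0.34.

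Of 27 tested genes on the second immediate early list, 11 were called higher with FX1 and 0 lower (median log2 0.63; limma). Csrnp1 (log2 2.34 ± 0.41, adjusted p = 0.00315), Rhob (log2 2.16 ± 0.32, adjusted p = 0.00124) and the stress gene Gadd45b (log2 1.58 ± 0.29, adjusted p = 0.00403) had the lowest p values. Of 21 upstream kinases and factors, 2 were called higher and 2 lower, beside 9.04% and 8.82% of all tested genes (limma). Among them, Map2k3, a p38 activator, was higher (log2 1.78 ± 0.17, adjusted p = 0.000134) and Srf, which encodes serum response factor, lower (log2 -0.42 ± 0.10, adjusted p = 0.016). Zfp36l1, a paralog of Zfp36, was also higher (log2 0.81 ± 0.26, adjusted p = 0.0471), and of 11 heat shock genes 4 were lower and 0 higher. Beside these, 6 of 12 muscle fibre markers were called lower (median log2 -0.76), with a mean log2 level of 13.34 to 14.20 with FX1 and 14.51 to 14.58 with DMSO, and of 59 tested markers of other cells 5 were called higher, 2 of them endothelial, and 4 lower, 3 of them satellite cell markers. Their part in the differences of the members was not tested.

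**Figure D3:**
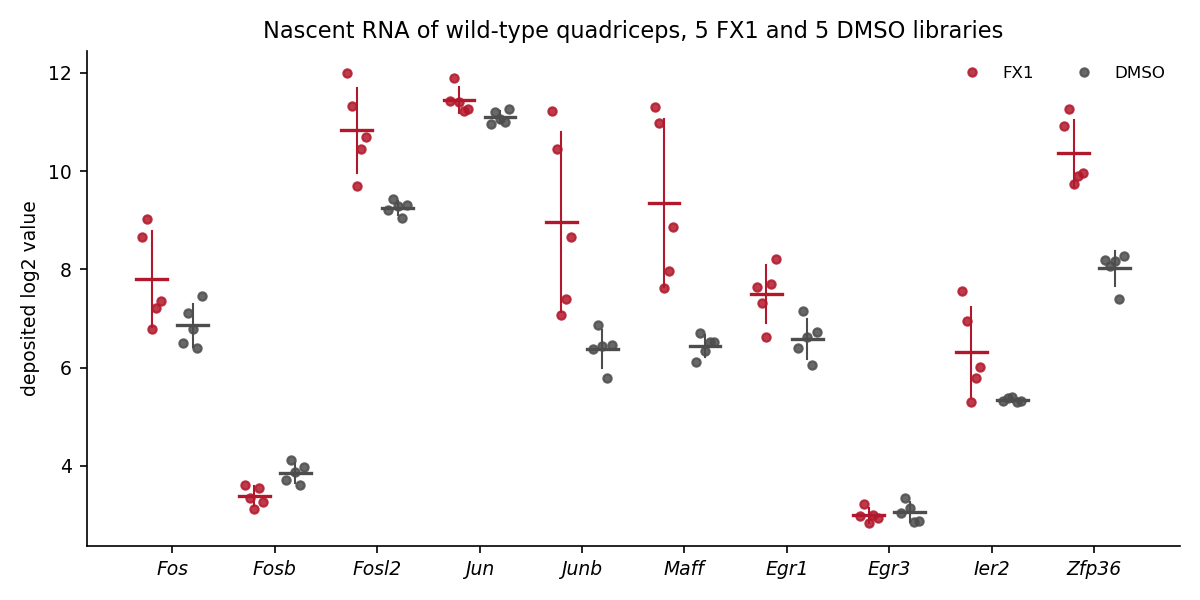
Deposited log2 values of the 10 genes in nascent RNA, with FX1 left of DMSO. Points are libraries (5 per group), horizontal bars means and vertical bars 1 SD; Fosl2, Junb, Maff and Zfp36 do not overlap between the groups.

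At the members' promoters H3K27ac was not called changed in either series. The H3K27ac tables hold 98 regions assigned to members by nearest start, and 0 of these 98 passed in the acute or in the chronic series with limma, where 0.0921% of 73853 and 0.144% of 73483 regions passed. Groups did not overlap in 6 of the 98 that were higher and 5 that were lower in the acute knockouts (7.25% and 6.08% of all regions), and in 5 higher and 7 lower in the chronic ones (6.59% and 5.86%). With so few regions called, a miss shows little.

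The region next to the Fos start (chr12:85472758-85473306, 858 bases upstream of the start, annotated promoter) is described because it leaned opposite ways. In the acute series its signal (tags scaled to an equal library total) was 117, 129 and 113 in the knockouts, against 104, 96.1 and 98.0 in the Cre-negative mice, all higher in the knockouts (log2 0.27 ± 0.14 SE, limma adjusted p = 0.627). In the chronic series it was 80.2, 75.6 and 96.8 in the knockouts, against 136, 117 and 108 in the Cre-negative mice, all lower in the knockouts (log2 -0.51 ± 0.17, limma adjusted p = 0.497). A fit of both series together gave a difference of 0.78 between the changes (limma unadjusted p = 0.00107) that did not pass over all 73846 regions (limma adjusted p = 0.923), where 0 regions passed. The region was picked for this contrast in the same values, so the unadjusted p carries no weight. A member region 54746 bases upstream of Egr3 had a larger difference, -2.51 (limma unadjusted p = 0.000978), which did not pass either (limma adjusted p = 0.923). The region in the Jun 5′ end had a signal of 271, 263 and 324 in the acute knockouts, against 189, 242 and 262 in the Cre-negative mice, without overlap by a narrow margin (log2 0.31 ± 0.10, limma adjusted p = 0.345). That of Ier2 had 119, 143 and 154 in the acute knockouts against 112, 113 and 119 in the Cre-negative mice (limma adjusted p = 0.602). Neither differed without overlap in the chronic series. Egr3 and Fosb had weak acetylation, with 2.88 to 16.8 signal units on average in any group, against 74.4 to 287 for the other 8.

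**Figure D4:**
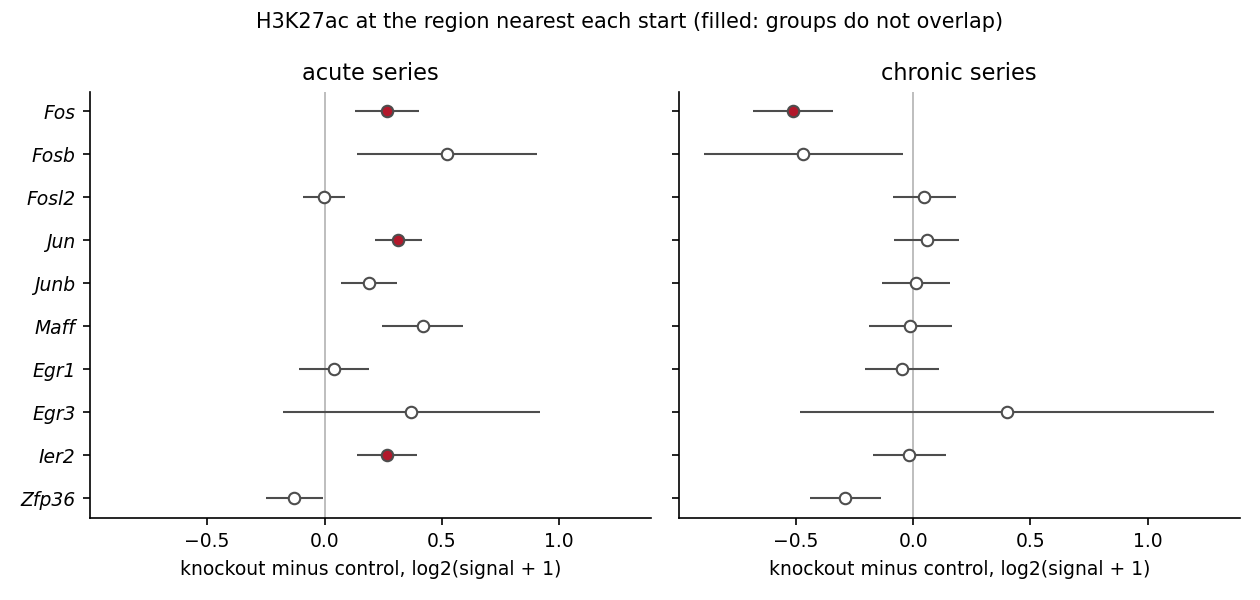
Knockout minus control difference in H3K27ac, on the log2(signal + 1) scale, at the region nearest each gene's start, in the acute (left) and the chronic (right) series. Bars are 1 SE and filled points mark groups without overlap (n = 3 each): Fos lies at 0.27 in the acute and -0.51 in the chronic series.

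BCL6 peaks were assigned to 6 of the 10 members. The authors' list holds 10925 peaks, each 221 bases long, with the authors' own score (median 23.3), and 16 of them have a member as the nearest gene. Fos had 5, Jun 4, Egr1 3, Ier2 2, and Egr3 and Junb 1 each, whereas Fosb, Fosl2, Zfp36 and Maff had 0. For scale, 25.5% of genes in the count table could be paired with at least 1 peak.

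The peaks with the highest scores lay at Fos. One, with a score of 279 (rank 68), was 58707 bases downstream of the start (chr12:85532487-85532707, intergenic), and another, with a score of 124 (rank 436), was 1783 bases upstream (chr12:85471997-85472217, intergenic). The Jun peaks had scores of 63.7, 49.0, 36.8 and 24.5: 1 lay in the exon 1730 bases downstream of the start (chr4:95050382-95050602) and 3 lay 101889 to 156551 bases upstream. Within 1000 bases of a start lay 2 peaks, at Egr3 (684 bases upstream, chr14:70076523-70076743, score 27) and at Egr1 (180 bases upstream, score 18.4). Of the 16 peaks, 6 overlapped a region of the acetylation table by at least 1 base, against 31.6% of all peaks.

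H3K27ac in 1000 base windows on these peaks was measured in 3 knockouts and 3 Cre-negative mice that also gave poly(A) RNA. One of the 16 windows was called, and it was higher in the knockouts, against 15% of 10152 windows called higher, 1.29% called lower and 16.3% called in either direction. It lay 156551 bases upstream of Jun (chr4:95208273-95209273, intergenic) and held 107, 108 and 108 signal units in the knockouts, against 72.6, 83.3 and 63.9 in the Cre-negative mice. The groups were clearly apart (log2 0.56 ± 0.14 SE, limma adjusted p = 0.0115). The call did not hold after quantile normalization (log2 0.35, adjusted p = 0.0887), with edgeR on recovered reads (log2 0.40, adjusted p = 0.0575) or without the third of these knockouts (adjusted p = 0.0509). The windows on the 2 high-scoring Fos peaks differed by log2 0.33 ± 0.21 at 58707 bases downstream and 0.15 ± 0.089 at 1783 bases upstream (limma adjusted p = 0.335 and 0.299). Groups did not overlap in 3 of the 16 windows that were higher in the knockouts, all at Jun, and in 1 that was lower. The shares of all windows were 26.3% and 5.7%. The lower one, at Egr3, held 8.26, 3.52 and 10.5 units in the knockouts, against 10.66, 14.03 and 10.97 in the Cre-negative mice, a weak signal (limma adjusted p = 0.2). The median over the 16 windows was log2 -0.0048, beside 0.13 for all windows.

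Within groups the members did not all vary together. Each gene's log2 CPM in RiboTag mRNA was centred on its group, and the mean of the 10 standardized deviations gave a profile over 8 libraries, of which each member is itself a part. Junb (r = 0.92), Fos (0.78), Jun (0.72) and Egr3 (0.67) followed it, whereas Zfp36 (-0.083) and Maff (-0.32) did not. Of 14369 other genes, Rpf1 (0.95), Dclk1 (0.95), Zfhx3 (0.93), Larp7 (0.93) and Prrt2 (0.92) were most like the profile. Over 8 libraries that share their depth such values are a description only, and none of these 5 genes was called between knockouts and controls in edgeR (adjusted p = 0.332 to 0.992).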

How the data were processed

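Of 74 quadriceps samples, 58 have values in the tables used; groups follow the labels, and inputs, the wild-type H3K27ac library and the chronic RNA libraries were left aside (not used here). The submitters' processing notes name STAR 2.4.0, Bowtie 1.2, HOMER, DESeq2 1.14.1 and the mm10 build. The poly(A) and nascent tables hold log2 values made by the authors from HOMER tags, on both strands in the poly(A) tables, with a transform that is not named. The RiboTag table holds deposited counts of tags in genes, at most 5 per position per the file headers; capped positions compress high values. H3K27ac is a deposited signal, tags per region scaled by library, and 100% of values came back as whole reads (tolerance 0.02 reads). The BCL6 peak list gives the authors' score. The deposited tables also give the authors' p-values, a log2 fold change and, for translation efficiency, a ratio per group.

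The test for counts was the quasi-likelihood test of edgeR 4.0.16, after TMM scaling and filterByExpr at a minimum count of 10. The authors' log2 values (mean above 2) and log2(signal + 1) (mean signal of at least 2) were tested with limma 3.58.1 and a trended variance, in R 4.3.3. P-values were Benjamini-Hochberg adjusted over each whole table and features were called below 0.05. Alternatives were DESeq2 1.42.0, other normalizations, filters and pseudocounts, a replicate block and leaving out each library. Fits were tested on simulated data. The members and lists were chosen with earlier results of these data known. Named are the members, Bcl6, up to 3 called genes per list with the lowest p, the 5 genes most like the profile, the region nearest each start within 1000 bases, called regions and each BCL6 peak assigned to a member. Choices made after seeing the data were edgeR on recovered reads, the joint fit of acute and chronic H3K27ac, and leaving out 2 FX1 libraries or 2 knockouts. RiboTag footprint and mRNA libraries with the same number come from the same animal; their deviations from the group means correlated at -0.0257 to 0.349 across genes.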

Additional observations from a re-analysis of the deposited data

Results flagged for a closer look

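The values of 6 samples stood apart from the rest of their group by Dixon's test, which flags about 1 group in 20 by chance. It was applied gene by gene and group by group, so several such flags would arise by chance alone. In RiboTag mRNA, 1 knockout was low in Fosl2 (41.4 CPM, group median 78.2), another knockout was high in Jun (227 CPM, median 205) and 1 control was low in Fos (8.69 CPM, median 16.4). In footprints the same control was high in Fosb (4.2 CPM, median 1.98). In poly(A) RNA 1 oil mouse was high in Egr3 (4.82, median 4.76), and in nascent RNA DMSO library 4 was low in Zfp36 (7.39, median 8.18). The H3K27ac region at the Fos start was higher in all acute and lower in all chronic knockouts than in Cre-negative mice; the difference between the 2 changes was 0.78 on the log2 scale and did not pass over all regions (limma adjusted p = 0.923).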

How the results depend on the processing

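Of 1068 recomputed values of single members, 936 kept their direction and their side of the threshold, 43 lost and 13 gained a call, 76 uncalled values moved, and 0 called values turned round. The cause of the changes below was not tested. For Cre-negative poly(A) RNA without a filter, 533 genes were called higher, and 1 member (Fos) lower. For RiboTag mRNA, DESeq2 called 961 genes, 573 of them lower. Without the 2 knockouts high in neutrophil markers, RiboTag mRNA gave 176 calls (101 higher, 75 lower; 1 member) and footprints 1041 (356 higher, 685 lower). For translation efficiency 870 genes were higher with DESeq2 and 246 without a filter, and with the replicate block 1717 were called, Egr3 among them. For nascent RNA the replicate block gave 1696 calls (871 higher, 825 lower) and leaving out FX1 libraries 1 and 2 gave 1541 (764 higher, 777 lower). The number of members lower was 0 in both and after quantile normalization, and 3 were higher without a filter. The numbers of the nascent libraries do not pair them (r of -0.428 to 0.178 within a number).

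For acute H3K27ac, 156 regions were called with a pseudocount of 5 (142 higher, 14 lower) and 175 on recovered reads (157 higher, 18 lower), and 5 were lower after quantile normalization. For chronic H3K27ac the counts were 243 (221 higher, 22 lower), 379 (325 higher, 54 lower) and, after quantile normalization, 302 (256 higher, 46 lower). In the windows on BCL6 peaks, quantile normalization gave 891 higher and 501 lower and recovered reads 372 lower; under both, 0 members were higher and 1 (Junb) was lower. With scores at or above the median, 10 member peaks were left.

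Leaving out 1 library at a time gave 639 to 712 genes higher and 1032 to 1204 lower against Cre-negative mice (members 2 to 3 lower), and 2570 to 3101 calls against oil mice (1048 to 1270 higher, 1520 to 1831 lower). It gave 395 to 826 in RiboTag mRNA (176 to 343 higher, 209 to 483 lower; members 3 to 6 higher), and 2293 to 3761 in footprints (812 to 1514 higher, 1461 to 2247 lower; members 3 to 4 higher). Efficiency calls numbered 310 to 1892 (53 to 672 higher, 257 to 1455 lower; members 0 to 1 lower). Nascent calls numbered 2089 to 4451 (1059 to 2297 higher, 1023 to 2154 lower; members 3 to 7 higher, 0 to 1 lower). Acute regions called numbered 10 to 86 (8 to 77 higher, 0 to 9 lower), chronic ones 0 to 381 (0 to 325 higher, 0 to 56 lower), and windows 1040 to 1658 (956 to 1564 higher, 58 to 150 lower; members 0 to 2 higher). Depth limits Egr3 most, at 2 to 10 footprints per library, and H3K27ac rests on 3 mice a group.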
